A study of Mus musculus with 8 samples.

Results

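Lrrn4, Bnc1, Upk3b, Upk1b, Msln, Lhx9 and Ptx3 are genes of the mesothelium and of the coelomic epithelium from which it forms. They make up 7 of the 34837 gene names on the array and were found by the gene name that each probe carries, control probes left out. In all, 9 of 55663 probes read them: 3 probes lay in Lhx9 and 1 in each of the other genes. For 5 genes, with 7 probes, the signal was well above background on at least 1 of the 8 arrays, and these probes were tested. The probes of Upk1b and Msln were well above background on 0 arrays and were not tested.

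The coelomic epithelium is the cell layer that lines the embryonic body cavity. Over the urogenital ridge it covers the mesonephros, which holds the nephric duct, and its thickened medial part gives rise to the gonad. As it matures it becomes mesothelium, the flat and slippery lining of the peritoneum, pleura and pericardium. Wt1, the gene behind one of the reporters used here, is active in this epithelium as well as in nephrogenic mesoderm.

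The arrays compared precursors of the nephric duct and ureteric bud with intermediate mesoderm of mouse embryos of the ICR strain. Duct precursors carried a Hoxb7-GFP reporter and were sorted for GFP at E8.75 (1 array, undivided), E9.5 (a rostral and a caudal array), E10.5 (a rostral and a caudal array) and E11.5 (1 array of the bud). The titles of the duct samples from E9.5 on also state a lack of Flk1, a receptor of endothelial and blood precursors that is encoded by Kdr. The E8.75 title does not, while the design text gives that gate for duct precursors without setting E8.75 apart, so the E8.75 sort is uncertain in this respect. Cells with a Wt1-GFP reporter were sorted at E9.5 from a rostral and a caudal part of the embryo, with no Flk1 selection in their labels. Both sorts define cells by 1 promoter, and by their titles the duct sorts from E9.5 on also leave out Flk1-positive cells. As labelled, the reporters were thus gated differently, and no population is a single cell type.

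Each array detected 60.6% to 69.2% of its probes well above background and had 0 saturated probes. The correlation between any pair of arrays, across probes, was 0.923 to 0.964. A level here is the log2 of a probe's signal divided by the 75th percentile signal of its array. The dimmest probe well above background stood at -4.88 to -3.95 on this scale, depending on the array, and lower values have no order. The labels do not say that arrays came from separate animals, so p-values measure only the spread between these samples, which may be technical. In the main fit, that spread is how far rostral minus caudal differences varied among the 3 divided groups. In such bulk samples, fewer cells of a type and less RNA per cell cannot be told apart. Wt1, the gene used for sorting, stood at 4.08 and 4.01 on the Wt1-GFP arrays and at -6.92 to -0.2 on the duct arrays.

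The 7 tested probes are shown by their first 30 bases, 5′ to 3′, because each value below is the signal of one such stretch and because the 3 Lhx9 probes read different places. All letters are in lower case, since no base of a probe is singled out.
Lrrn4: ttatcaaagctgaacctgaatatgaatcac
Bnc1: tgcagctttaaaagaagtggattttgtatt
Upk3b: tcaccaagtgtactggttagagagtgtaaa
Lhx9 A_55_P2111264: acaaggataaagatgcaggcatcagctctg
Lhx9 A_55_P2111267: gggaaaaaatggtattacgatgggcgaatt
Lhx9 A_55_P2117853: agatgccaaggacctcaaacagcttgctca
Ptx3: tgtttatcttggcaaaatactgaatacaca
By the array's own annotation (mm9), the Lrrn4 probe lies on the minus strand at chr2:132694490-132694549 and starts at base 3177 of the transcript. The Bnc1 probe lies on the minus strand at chr7:89111978-89112037, from base 4173 of the transcript. The Upk3b probe lies on the plus strand at chr5:136520522-136520581, from base 1694. The Ptx3 probe lies on the plus strand at chr3:66029245-66029304, from base 1438. All 4 are therefore exonic, and whether they fall in a UTR was not read here.

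The 3 Lhx9 probes lie on the minus strand of chromosome 1 within 7431 bases of each other. Probe A_55_P2117853 is at chr1:140729280-140729339 and A_55_P2111267 at chr1:140727544-140727603, and both match the transcript listed as NM_001042577. Probe A_55_P2111264 is at chr1:140721909-140721968 and is listed for the transcript NM_001025565. The 3 probes can thus differ through the transcript forms they read as well as through their own brightness.

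**Figure D1:**
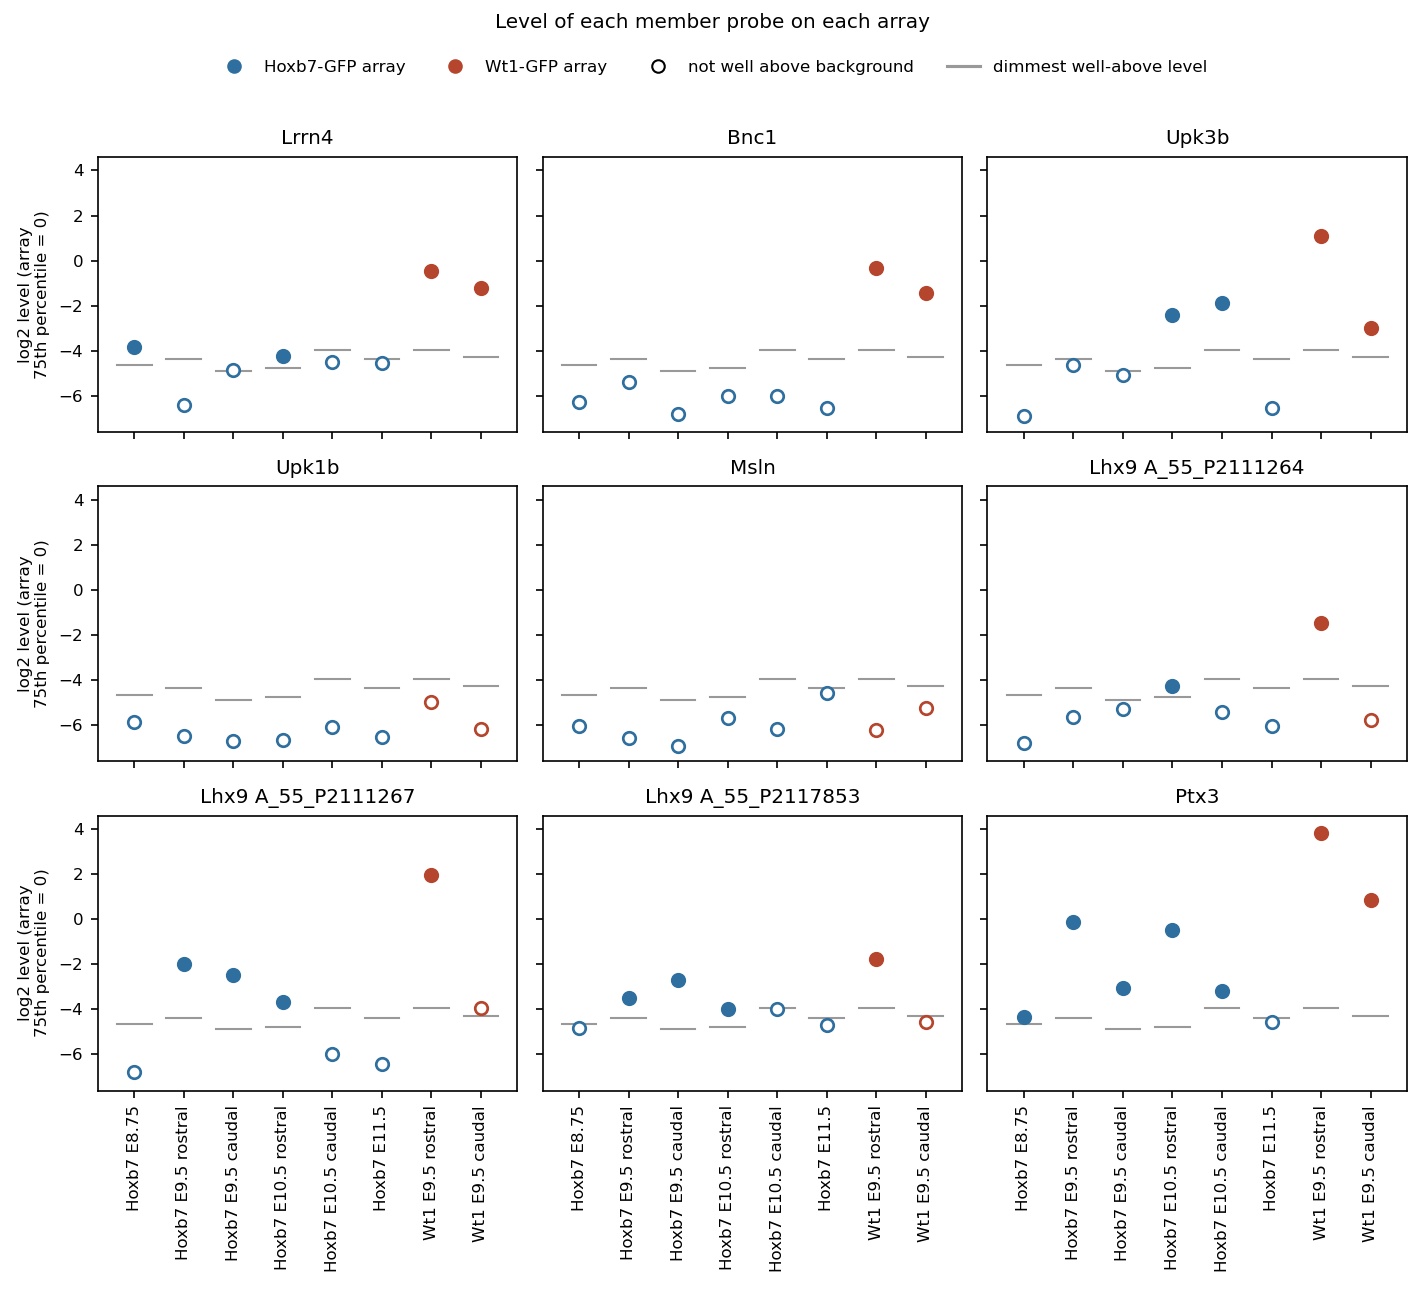
Log2 level (75th percentile of the array = 0) of each of the 9 probes on each of the 8 arrays, in blue for Hoxb7-GFP and red for Wt1-GFP, with open circles where the probe was not well above background and a grey bar at the level of the array's dimmest detected probe. Lrrn4 and Bnc1 stand high on both Wt1-GFP arrays, Upk3b, Lhx9 and Ptx3 are highest on the rostral Wt1-GFP array, and Upk1b and Msln have open circles throughout.

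The question of the first comparison was how duct precursors differ from neighbouring intermediate mesoderm at E9.5. Lrrn4, Bnc1, Upk3b and Ptx3 were brighter on both Wt1-GFP arrays than on both E9.5 duct arrays. In the main fit their group means differed by 12.8-fold or more each, although single arrays lay closer, whereas Lhx9 was not separated by the reporter. Across all probes tested, 26.5% had both Wt1-GFP arrays above both E9.5 duct arrays, against 4 of the 7 tested member probes. Both Wt1-GFP arrays lay above all 6 duct arrays for 8.23% of all probes, and for 3 of the 7: Lrrn4, Bnc1 and Ptx3. Bnc1 entered the tested set only through the Wt1-GFP arrays, where it is high, so its place in such counts is no independent support. A filter of at least 4 arrays well above background dropped Bnc1 and Lhx9 A_55_P2111264. The counts were then 3 of 5 (27.5% of all probes) for the E9.5 duct and 2 of 5 (9.5%) for all duct arrays. The median fitted difference, duct minus Wt1-GFP, was -3.91 over the 7 member probes and -0.04 over all 45582 probes.

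Lrrn4 encodes a membrane protein with leucine-rich repeats that is used as a mesothelial marker. Its level was -0.47 on the rostral and -1.22 on the caudal Wt1-GFP array. In the E9.5 duct it was -6.41 (rostral) and -4.86 (caudal), in both cases not well above background. The other duct arrays gave -3.84 at E8.75, -4.21 and -4.49 in the rostral and caudal duct at E10.5, and -4.54 at E11.5. Only the E8.75 and the rostral E10.5 value among the duct arrays were well above background, and no duct array reached either Wt1-GFP array. The fitted E9.5 difference was -4.79 (SE 0.67, 2 arrays against 2, limma, unadjusted p = 0.0026, adjusted p = 0.26). Because the duct arrays were below detection, the fold is a bound: Lrrn4 was at least 13.6-fold lower in the duct. For such bounds each undetected array was set to the level of its dimmest probe well above background, or to the probe's own level where that was higher. The latter held for Lrrn4 in the caudal E9.5 duct, where -4.86 lay just above the dimmest detected probe (-4.88), so this bound is not firm. The gap of 2.62 between the lower Wt1-GFP array and the highest duct array was larger than the residual SD of 0.67.

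Bnc1 encodes basonuclin, a zinc finger protein of mesothelium, basal epidermis and germ cells. It stood at -0.31 on the rostral and -1.44 on the caudal Wt1-GFP array. The 6 duct arrays ran from -6.79 (E9.5 caudal) through a median of -6.16 to -5.39 (E9.5 rostral). None of these 6 values was well above background, so by that measure Bnc1 was detected in the Wt1-GFP cells alone among the sorted populations. A weaker flag of the scanner software, for signal above the local background at all, was set for Bnc1 at E8.75 and in the rostral duct at E9.5 and E10.5. Absence from the duct is therefore not shown. Of all probes tested, 0.0899% were well above background on both Wt1-GFP arrays and on none of the 6 duct arrays, and Bnc1 was the 1 member probe with that pattern. The difference was -5.22 (SE 0.44, limma, unadjusted p = 0.00043, adjusted p = 0.21), which is at least 13.5-fold lower in the duct.

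Upk3b encodes a uroplakin, a family of membrane proteins that stiffen the surface of the urothelium; this member is also known from mesothelium. It stood at 1.1 on the rostral Wt1-GFP array and at -2.99 on the caudal one. The E9.5 duct values, -4.62 rostral and -5.09 caudal, were not well above background. The difference was -3.91 (SE 1.28, limma, unadjusted p = 0.041, adjusted p = 0.41), at least 12.8-fold lower in the duct. Its SE was larger than those of Lrrn4 and Bnc1, since its rostral minus caudal difference varied more among the 3 divided groups. That difference was 0.48 in the E9.5 duct (undetected levels), -0.54 in the E10.5 duct and 4.09 in Wt1-GFP cells. Without the rostral Wt1-GFP array the fitted reporter difference was -1.85, and without the caudal one -5.97. The pattern of detection on both Wt1-GFP arrays but neither E9.5 duct array was shared by Lrrn4, Bnc1 and Upk3b, 3 of the 7 member probes, and was found for 0.443% of all probes.

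Ptx3 encodes a long pentraxin, a secreted protein of innate immunity and of hyaluronan-rich matrix. It was the one member well above background in every E9.5 and E10.5 sample, with 3.81 and 0.84 on the rostral and caudal Wt1-GFP arrays and -0.12 and -3.04 on the rostral and caudal E9.5 duct arrays. The rostral duct value thus came within 0.96 of the caudal Wt1-GFP value, and the groups did not overlap. The E9.5 difference was -3.91 (SE 0.24, limma, unadjusted p = 0.00012, adjusted p = 0.21), or 15-fold lower in the duct. Taken within each position, it was -3.93 between the rostral arrays and -3.88 between the caudal arrays.

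Lhx9 encodes a LIM-homeodomain transcription factor of the gonadal ridge epithelium that is needed for the gonad to form. Probe A_55_P2111267 read 1.97 on the rostral Wt1-GFP array, -3.92 on the caudal one, and -1.99 and -2.49 on the rostral and caudal E9.5 duct arrays. Probe A_55_P2117853 read -1.76 and -4.58 on the same Wt1-GFP arrays, and -3.48 and -2.7 on the E9.5 duct arrays. Probe A_55_P2111264 read -1.46 and -5.75 on these Wt1-GFP arrays, and the E9.5 duct gave -5.62 and -5.26. With each of the 3 probes the rostral Wt1-GFP array was the highest of all 8, and the caudal Wt1-GFP array was not well above background. Reporter groups therefore overlapped for all 3. The rostral Wt1-GFP array stood above the next array by 3.96 with A_55_P2111267 (residual SD 1.43) and by 2.82 with A_55_P2111264 (SD 1.25), but by 0.95 with A_55_P2117853, less than its SD of 1.01.

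The fitted Lhx9 differences, duct minus Wt1-GFP, were -1.26 (SE 1.43, adjusted p = 0.74), -1.84 (SE 1.25, adjusted p = 0.58) and 0.08 (SE 1.01, adjusted p = 0.98) for A_55_P2111267, A_55_P2111264 and A_55_P2117853. The last of these had the opposite sign from the others, and it turned to -0.17 with normexp background correction and to -0.09 with quantile normalization. Taken by position, the rostral duct was lower than the rostral Wt1-GFP cells, with differences of -3.96 for A_55_P2111267 and -1.72 for A_55_P2117853, while A_55_P2111264 was well above background in the rostral Wt1-GFP cells and not in the rostral duct. Between the caudal arrays, A_55_P2111267 and A_55_P2117853 were well above background in the duct and not in Wt1-GFP cells, and A_55_P2111264 in neither.

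**Figure D2:**
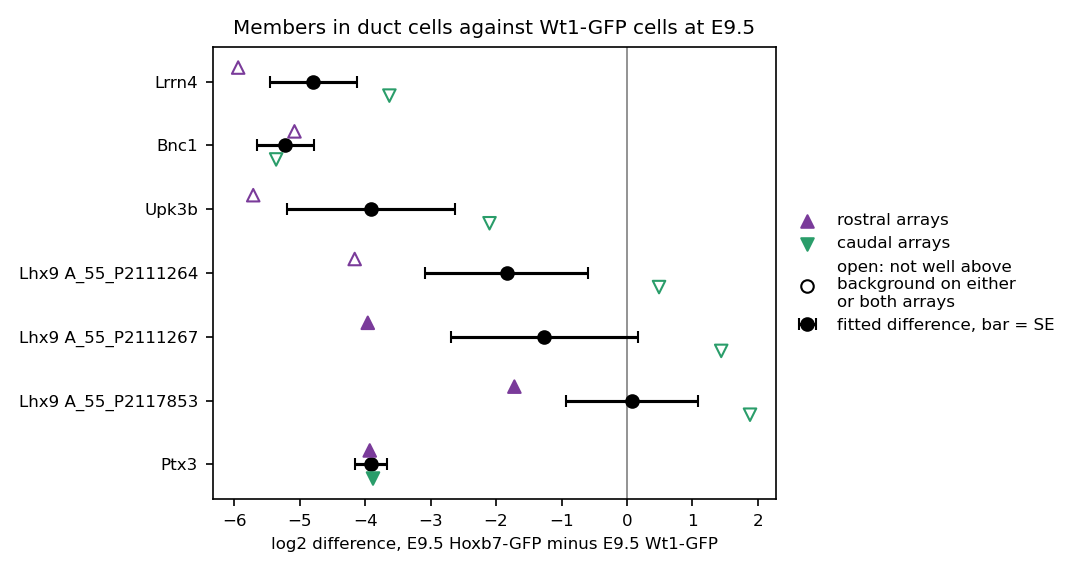
Log2 difference at E9.5, Hoxb7-GFP minus Wt1-GFP, for the 7 tested probes: black points are fitted differences with their SE as bars, upward triangles compare the rostral arrays and downward triangles the caudal arrays, open where either or both arrays were not well above background, so that the size is not exact. Ptx3 gives nearly the same difference at both positions with all arrays detected, while the 3 Lhx9 probes lie left of 0 for the rostral arrays; the fitted value of A_55_P2117853, 0.08, changes sign with normexp correction (-0.17), quantile normalization (-0.09) and floored values (-0.07).

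Of the 7 tested member probes, 0 passed an adjusted p of 0.05 in this fit, and the share over all 45582 probes was 0% as well. At an unadjusted p of 0.05, 4 member probes were lower in the duct (Lrrn4, Bnc1, Upk3b and Ptx3), against 5.63% of all probes, and 0 were higher, against 6.1%. Of these, Bnc1 was tested only because it was well above background on the Wt1-GFP arrays. A difference of 4-fold or more, lower in the duct, was seen for the same 4 and for 1.9% of all probes. When the prior variance was allowed to follow signal intensity, 3 of 7 passed, all lower in the duct, against 0.889% of all probes: Lrrn4 (adjusted p = 0.043), Bnc1 (0.037) and Ptx3 (0.014). That count went to 0 when the caudal duct array of E9.5 or either E10.5 array was left out, and to 0 with the slide row as a block. Leaving out the rostral duct array of E9.5 or the rostral Wt1-GFP array gave 1 (Ptx3 each time), leaving out the caudal Wt1-GFP array gave 2 (Ptx3 and Upk3b), and leaving out the E8.75 or the E11.5 array gave 3.

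The slide had 2 rows, with both E9.5 duct arrays in the first and both Wt1-GFP arrays in the second. With the row as a block the differences were -5.47 for Lrrn4, -3.95 for Bnc1, -1.09 for Upk3b and -3.63 for Ptx3, with adjusted p = 0.68 to 0.94. Normexp correction gave -1.61 for Lrrn4, -1.68 for Bnc1, -1.8 for Upk3b and -3.04 for Ptx3. For Lrrn4, Bnc1 and Upk3b the normexp differences were smaller than the fold bounds given above, as was the row-block value of Upk3b. Those bounds thus hold for the main processing and fit alone.

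Upk1b, a tetraspanin that pairs with other uroplakins in the urothelium, and Msln, the mesothelial surface protein mesothelin, were not well above background on any array. Upk1b was printed 10 times on each array, and its values ran from -6.68 to -5.86 in the duct and were -4.98 and -6.18 on the rostral and caudal Wt1-GFP arrays. Msln ran from -6.94 to -4.58 in the duct and stood at -6.21 and -5.25 in Wt1-GFP cells. No fold is given for either gene. The weaker flag, for signal above the local background at all, was set for Upk1b on all kept spots of the rostral Wt1-GFP array and for Msln on 4 arrays: E8.75, rostral E10.5, E11.5 and caudal Wt1-GFP. Among undetected values of other members, it was also set for Lrrn4 in the caudal E9.5 duct and for Upk3b in both parts of that duct. Every Lhx9 probe had it on the caudal Wt1-GFP array.

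The second comparison was between rostral and caudal parts. In Wt1-GFP cells all 7 tested member probes were brighter on the rostral array, where 52.7% of all probes were. The rostral excess was 4-fold or more for 5 of the 7 (Upk3b, the 3 Lhx9 probes and Ptx3) and for 4.08% of all probes. The median rostral minus caudal difference in Wt1-GFP cells was 2.97 over the member probes, with Lhx9 counted by each of its 3 probes, and 0.04 over all probes. These are single arrays, so the differences have no replicate check.

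Lhx9 differed by position in Wt1-GFP cells with each of its probes. The rostral array exceeded the caudal one by 5.89 with A_55_P2111267, by 4.29 with A_55_P2111264 and by 2.83 with A_55_P2117853. As bounds, A_55_P2111264 and A_55_P2117853 were at least 7.07-fold and 5.77-fold brighter. For A_55_P2111267 the undetected caudal level, -3.92, was above the array's dimmest detected probe (-4.28). Its 59.3-fold is therefore the plain ratio and not an exact size or a firm bound. Detection on the rostral and not the caudal Wt1-GFP array was found for these 3 of the 7 member probes, all of 1 gene, and for 6.46% of all probes. In the E9.5 duct, rostral minus caudal was 0.5 for A_55_P2111267 and -0.77 for A_55_P2117853, both detected in both parts. In the E10.5 duct all 3 probes were well above background in the rostral and not in the caudal part, although A_55_P2117853 had a level of -4 in both.

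Upk3b was 17-fold brighter on the rostral than on the caudal Wt1-GFP array, a difference of 4.09, and both arrays were well above background. In the E10.5 duct, where both parts were also well above background, the difference was -0.54, and in the E9.5 duct neither part was. Lrrn4 and Bnc1 showed the least position difference in Wt1-GFP cells, 0.75 and 1.13, or 1.69-fold and 2.19-fold. In the duct, where Bnc1 was not detected, no position difference of Bnc1 is read.

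Ptx3 differed by position in every divided group. The rostral minus caudal difference was 2.92 in the E9.5 duct, 2.67 in the E10.5 duct and 2.97 in Wt1-GFP cells. The duct of both days thus had the same direction and nearly the same size of position difference as the Wt1-GFP cells. The fitted position difference was 2.85 (SE 0.19, limma, unadjusted p = 0.00019, adjusted p = 0.77), which is 7.23-fold. By level alone, detected or not, rostral lay above caudal in all 3 divided groups for 3 of the 7 member probes and for 16% of all probes. One of the 3 was Bnc1, which is not read because its duct levels were undetected and its E10.5 levels equal to 2 decimals, and the others were Ptx3 and Lhx9 A_55_P2111267.

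No member probe passed in the rostral against caudal fit (0 of 7, limma), and 0% of all probes did; at an unadjusted p of 0.05, Ptx3 was the 1 member probe, higher in the rostral parts as were 3.98% of all probes, and 2.37% were lower. A separate term asked whether the position difference was larger in Wt1-GFP than in Hoxb7-GFP cells, in a fit with 1 residual degree of freedom. It was 4.12 for Upk3b (SE 0.71, unadjusted p = 0.01) and 3.91, 4.48 and 3.22 for Lhx9 A_55_P2111264, A_55_P2111267 and A_55_P2117853 (SE 0.89, 1.04 and 0.63, unadjusted p = 0.022, 0.023 and 0.014). Their adjusted p was 0.79 in each case, so 0 of 7 passed, as did 0% of all probes. At an unadjusted p of 0.05 these 4 member probes were higher, against 3.4% of all probes, and 0 were lower, against 2.72%. For Ptx3 the term was 0.18 (SE 0.51, adjusted p = 1). For Upk3b and Lhx9 the term also used duct levels that were not well above background, and its size is not exact.

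**Figure D3:**
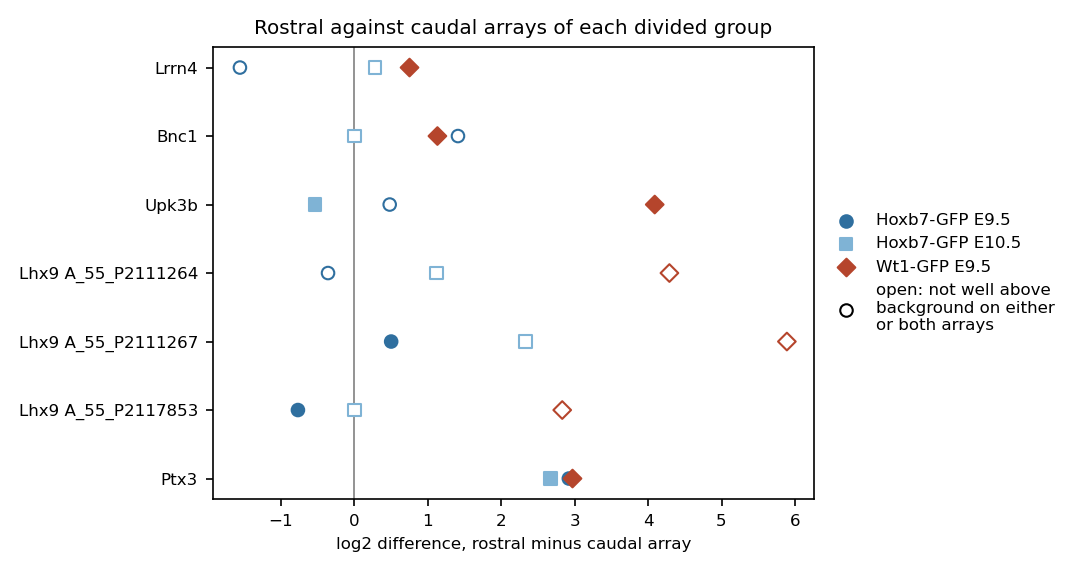
Log2 difference between the rostral and the caudal array (rostral minus caudal) of the E9.5 duct, the E10.5 duct and the E9.5 Wt1-GFP cells for the 7 tested probes, 1 array on each side, with open symbols where either or both arrays were not well above background. The 3 Ptx3 points lie together between 2.67 and 2.97, whereas Upk3b and the Lhx9 probes have their Wt1-GFP point, 2.83 to 5.89, to the right of their duct points.

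Markers of other cell types also differed by position in Wt1-GFP cells, in both directions, and their part in the member differences was not tested. The summed linear signal (75th percentile of the array = 1) of 6 heart markers was 4.44 on the rostral and 2.55 on the caudal Wt1-GFP array, against 0.714 to 7.5 on the duct arrays. Of these 6, 5 were well above background on the rostral and 3 on the caudal Wt1-GFP array, and Nkx2-5, a defining factor of cardiac precursors, was not detected on any array. The median rostral minus caudal difference of the 5 tested was 1.93. The caudal heart sum came mostly from Actc1, at 1.17 there and 0.61 on the rostral array. The other 4 were brighter on the rostral array: Myl7 by 5.8, Tnnt2 by 3.14, Myh6 by 1.93 and Nppa by 1.42. The 6 stroma markers were all well above background on both Wt1-GFP arrays and summed to 75.4 rostral and 39.7 caudal, against 1.16 to 9.44 in the duct. The 5 neural markers summed to 5.76 and 2 in Wt1-GFP cells and to 121 on the rostral E9.5 duct array, where the other duct arrays gave 7.28 to 23.6. Lateral plate markers ran the other way in sum, with 1.5 rostral and 5.48 caudal in Wt1-GFP cells and a median difference of -1.42, against sums of 0.128 to 1.19 in the duct. By gene they divided: Pitx1, Tbx4 and Prrx1 differed by -4.22, -4.12 and -1.42. The other 2 of the 5 tested, Hand1 and Hand2, were brighter on the rostral array, by 0.68 each. Nephrogenic markers had a median difference of -1.13, and 1 of the 6, Eya1, was brighter on the rostral array. Their sums, 732 and 676, came almost wholly from the Eya1 probe and are not read. That probe stood at 9.5 and 9.34 on these arrays and at 9.12 to 9.41 in the duct. The sums of blood (8.17 and 6.04), somite (11.1 and 9.99) and endoderm markers (0.286 and 0.193) were closer between the rostral and caudal Wt1-GFP arrays. Those of endothelium markers, 4.83 and 4.55, came mostly from a Kdr probe at 2.1 on both arrays. By gene, 7 of the 8 endothelium markers were brighter on the rostral array, where 52.4% of all genes were, with a median difference of 0.72. Of these 8, 5 were well above background on the rostral and 2 on the caudal Wt1-GFP array.

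In the E9.5 reporter comparison the marker lists divided as follows, by the brightest probe of each gene tested and with 0 genes past the adjusted threshold. Over all genes 53.7% were lower in the duct. Duct markers were higher in the duct for 12 genes and lower for 1, endothelium markers for 7 and 1, and neural markers for 4 and 1. Stroma and nephrogenic markers were lower in the duct for all 6 tested genes of each list, and lateral plate markers for 4 with 1 higher. Blood markers were lower for 3 and higher for 3, somite markers 2 and 2, heart markers 3 and 2, and endoderm markers 2 and 3.

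The third comparison followed the duct from E8.75 to E11.5. Lhx9, Upk3b and Ptx3 were dim at E8.75, brighter at E9.5 or E10.5, and not well above background in the E11.5 bud. The E8.75 array also stood apart in cell markers: endothelium markers summed to 35.7 there and to 4.12 to 6.06 on the later duct arrays, and endoderm markers to 5.36 and to 0.138 to 1.05. Their part in the stage differences was not tested. No member probe passed between neighbouring stages: 0 of 7 from E8.75 to E9.5, from E9.5 to E10.5 and from E10.5 to E11.5, with 0% of all probes each time (limma). At an unadjusted p of 0.05, 7.36%, 3.85% and 6.43% of all probes were higher and 7.16%, 3.48% and 5.73% lower at the later stage of the 3 steps.

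Ptx3 stood at -4.35 at E8.75, -0.12 and -3.04 in the rostral and caudal duct at E9.5, -0.5 and -3.17 at E10.5, and -4.57 at E11.5. Both rostral duct arrays lay above every other duct array. From E8.75 to E9.5 the difference was 2.77 (SE 0.29, limma, unadjusted p = 0.00093, adjusted p = 0.23), or 6.81-fold higher. From E9.5 to E10.5 it was -0.26 (SE 0.24, adjusted p = 0.87). From E10.5 to the E11.5 bud it was -2.73 (SE 0.29, unadjusted p = 0.00098, adjusted p = 0.28), at least 5.79-fold lower. The undivided E8.75 and E11.5 arrays were here set against the mean of a rostral and a caudal array. The caudal levels, -3.04 and -3.17, lay nearer to -4.35 and -4.57 than the rostral ones did. Stage and position therefore cannot be told apart in these 2 steps. In order of level, the caudal E9.5 and E10.5 duct arrays differed by 0.13, less than the residual SD of 0.24, while the other detected neighbours were farther apart.

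Upk3b was well above background in the duct at E10.5 alone, with -2.43 in the rostral and -1.89 in the caudal part. It read -6.88 at E8.75 and -6.54 in the E11.5 bud. E10.5 exceeded E9.5 by 2.69 (SE 1.28, limma, adjusted p = 0.74), at least 5.53-fold. The bud lay below E10.5 by a fitted difference of -4.38 (SE 1.56, limma, adjusted p = 0.41), at least 4.63-fold. Both E10.5 duct values were above the caudal Wt1-GFP value of -2.99, but the gaps of 0.54 and 0.56 between these 3 neighbours were smaller than the residual SD of 1.28.

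Lhx9 A_55_P2111267 was well above background in both parts of the E9.5 duct and in the rostral E10.5 duct at -3.66, and not in the caudal E10.5 duct (-5.99), at E8.75 (-6.77) or in the E11.5 bud (-6.44). Probe A_55_P2117853 was detected on the same 3 duct arrays, with -4 in the rostral E10.5 duct. Probe A_55_P2111264 was detected in the duct in the rostral E10.5 part alone, at -4.28. E9.5 exceeded E8.75 by 4.53 with A_55_P2111267 (SE 1.76, limma, adjusted p = 0.37), at least 5.32-fold, and by 1.73 with A_55_P2117853 (SE 1.23, adjusted p = 0.57), at least 2.95-fold. Across the 8 arrays the 3 probes correlated pairwise at Pearson r = 0.83 to 0.91, a description over arrays of 1 slide that includes undetected levels.

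To set the members in their programme, 15 transcriptional regulators of the coelomic epithelium and gonadal ridge were read from the brightest probe of each. Of the 14 tested, 12 were lower in the E9.5 duct than in Wt1-GFP cells and 2 were higher, where 53.7% of all genes were lower. At an unadjusted p of 0.05, 7 were lower and 1 higher, against 5.76% and 5.97% of all genes, and 0 passed the adjusted threshold. The median difference was -1.88 for the list and -0.05 for all genes. Wt1 itself, which defined the sort and is no independent reading, is counted among the 12 and the 7 and in the median. It differed by -5.12 (SE 1.08), and Osr1, an early factor of intermediate mesoderm, by -3.89 (SE 1.14). Emx2, a homeobox gene of the duct as well as of the gonadal ridge, was higher in the duct by 3.53 (SE 0.94), and Nr5a1, the steroidogenic factor of the gonad, by 0.08 (SE 0.22).

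By position the same factors divided. In Wt1-GFP cells 8 of the 14 were brighter on the rostral array, close to the 52.4% of all genes. Gata4, a zinc finger factor of the gonadal ridge and heart that was singled out after its values were seen, differed by 6.18, with 3.1 on the rostral and -3.08 on the caudal Wt1-GFP array. Lhx2, the closest relative of Lhx9 and singled out in the same way, differed by 4.44, with 1.55 and -2.89. Wt1 and Osr1 differed by 0.06 and -1.28. Position differences like those of Lhx9 and Upk3b were thus found for some regulators and not for the sort marker.

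**Figure D4:**
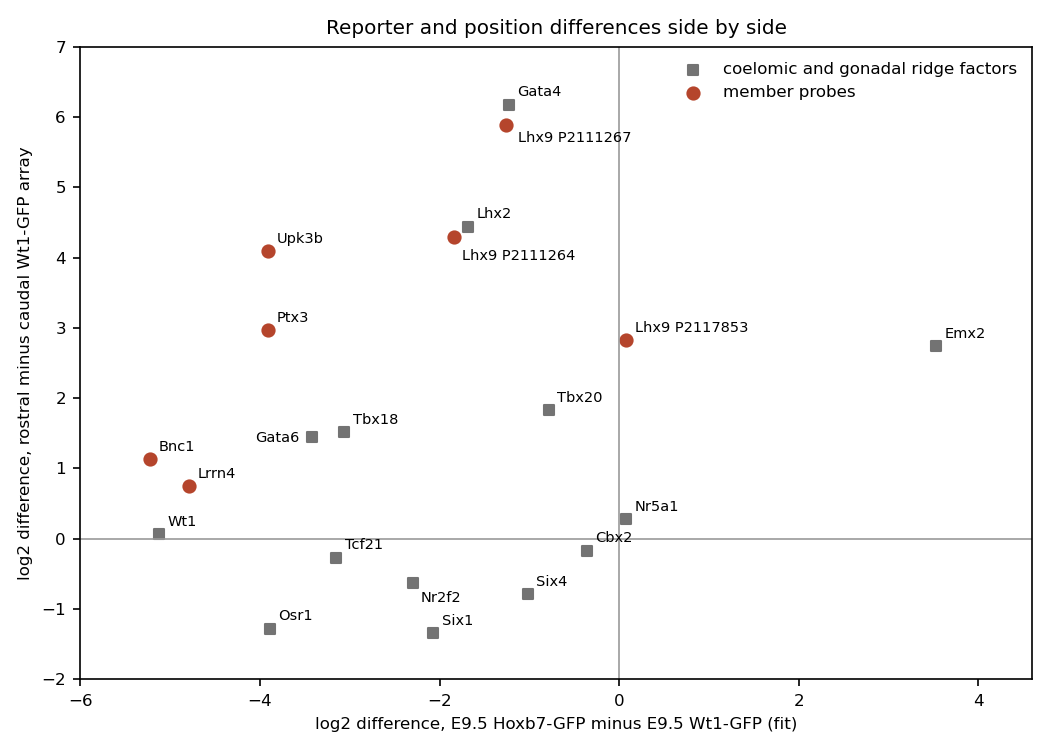
Each point is 1 probe, with the fitted E9.5 difference (Hoxb7-GFP minus Wt1-GFP, log2) on the horizontal axis and the rostral minus caudal difference between the Wt1-GFP arrays (log2) on the vertical axis; circles are member probes and squares the 14 tested coelomic and gonadal ridge factors. Bnc1, Lrrn4 and Wt1 lie far left and near 0 in height, Lhx9, Gata4 and Lhx2 lie high, and Lhx9 A_55_P2117853, at 0.08 on the horizontal axis, moves to -0.17 with normexp correction, -0.09 with quantile normalization and -0.07 with floored values.

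A list of 20 proteins found in mesothelium, many of them shared with other epithelia, did not lean one way in the direction of its differences. Of 19 tested, 9 were lower and 10 higher in the duct, where 53.7% of all genes were lower, with a median of 0.24. Rspo1, a Wnt-enhancing secreted protein of the early gonad, and Aldh1a2, the retinoic acid synthesising enzyme of embryonic mesoderm, differed by -4.59 (SE 1.62) and -4.58 (SE 0.66). Aldh1a1, a related enzyme, and Crip1, a small LIM protein, were higher in the duct by 5.16 (SE 2.41) and 2.58 (SE 0.64). In this list 4 were lower and 2 higher at an unadjusted p of 0.05, against 5.76% and 5.97% of all genes, and 0 passed the adjusted threshold. On the rostral Wt1-GFP array 17 of 19 were brighter than on the caudal one, with a median difference of 0.36, against 52.4% and 0.03 for all genes.

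The genes whose brightest probe followed each member most closely over the 8 arrays were ranked by Pearson r among 26781 genes well above background on at least 2 arrays. With 8 points from 1 slide, and so many candidates, these are descriptions. They also use undetected levels, which have no order. The probes of Lrrn4, Upk3b and Lhx9 used here were well above background on 4 arrays each, and that of Bnc1 on 2. For Lrrn4 the closest genes were H19, an imprinted noncoding RNA (r = 0.983), 1700007I08Rik (0.969) and the zinc finger gene Zfp410 (0.967). Bnc1 was followed by Tnni2, a troponin of fast muscle (0.984), and the noncoding U90926 (0.983). U90926 stood at 1.2 and 0.51 on the Wt1-GFP arrays and at no more than -6.2 on any duct array.

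Upk3b was followed by Lima1, an actin-binding LIM protein (0.969), Sv2c, a synaptic vesicle protein (0.966), and the transcript listed as TC1633894 (0.965). For Lhx9 the closest were AU023871 (0.962), Mxra8, an adhesion protein (0.96), and D1Ertd448e (0.958). Ptx3 was followed by AV026068 (0.984), the neurotrophin Bdnf (0.976) and the lipoprotein receptor Lrp1 (0.974). Bdnf stood at -2.37 and -3.43 on the rostral and caudal Wt1-GFP arrays and at no more than -3.58 in the duct. No other member was among the 3 closest genes of a member.

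Promoter sequence was read for the members because Lrrn4, Bnc1 and Upk3b shared detection in Wt1-GFP cells and not in the E9.5 duct. RefSeq promoters (GRCm38.p6) were found for 5 of the 7 genes, with Upk1b and Msln missing, and the 250 bases before the start were searched on both strands. The motif GGAATG, bound by TEAD factors, is in capitals below, as GGAATG or its reverse complement CATTCC.
Lrrn4, chr2:132880863-132881112, minus strand: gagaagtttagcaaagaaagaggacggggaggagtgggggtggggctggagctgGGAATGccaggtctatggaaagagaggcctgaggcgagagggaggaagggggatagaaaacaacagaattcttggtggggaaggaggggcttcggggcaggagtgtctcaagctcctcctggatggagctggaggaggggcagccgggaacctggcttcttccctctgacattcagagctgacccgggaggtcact
Bnc1, chr7:81992300-81992549, minus strand: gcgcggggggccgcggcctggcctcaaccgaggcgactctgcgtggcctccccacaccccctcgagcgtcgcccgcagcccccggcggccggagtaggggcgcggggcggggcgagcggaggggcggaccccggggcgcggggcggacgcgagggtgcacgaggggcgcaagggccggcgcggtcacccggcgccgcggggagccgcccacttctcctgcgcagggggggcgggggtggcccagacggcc
Upk3b, chr5:136038246-136038495, plus strand: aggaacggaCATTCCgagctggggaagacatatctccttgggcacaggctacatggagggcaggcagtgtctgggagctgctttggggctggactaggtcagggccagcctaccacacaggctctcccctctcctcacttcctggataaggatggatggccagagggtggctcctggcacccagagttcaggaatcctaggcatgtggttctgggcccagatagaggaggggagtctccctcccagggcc
The motif occurred in 2 of 5 member promoters, 196 bases before the start of Lrrn4 and 241 bases before that of Upk3b, and in 12.6% of all 32851 promoters. AGATAA, bound by GATA factors, occurred in 0 of 5 and in 9.99% of all promoters. GCGTGGG, a core shared by EGR1 and WT1, occurred in 0 of 5 and in 4.3% of all. These counts describe letters in the windows and nothing about the factors. The Bnc1 window held 39 CpG dinucleotides at 83.6% GC, the other 4 held 2 to 5, and the median promoter held 6 at 52.4% GC. In the 3 windows printed, the counts of CpG were 5, 39 and 2.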

How the data were processed

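Per the labels, 10 ng of total RNA from sorted cells was amplified and labelled with Cy3 for 1-colour Agilent arrays. Intensities were deposited as processed signals, already background-subtracted, from version 10.7.3.1 of Agilent Feature Extraction, per the file headers and the submitters' processing notes. The deposited matrix holds log2 values whose scale was worked out here: it correlated at 0.9998 with the scanner values used here after centring by probe, and served as an alternative. The genome build mm9 of probe positions is that of the array annotation in the deposited files.

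Outlier spots were left out and repeated spots averaged (18 of 55681 probes dropped). A probe counted as well above background when over 50% of its spots were. Processed signals were divided by the array's 75th percentile (242.9 to 316.7) and put on a log2 scale. The 8 arrays shared 1 slide and 1 scan time, and their number limits the precision.

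The 45582 probes well above background on at least 1 array entered a limma fit (limma 3.58.1, R 4.3.3, version 1.17.8 of data.table) with 5 group terms and a position term (0.5 rostral, -0.5 caudal, 0 undivided). This left 2 residual degrees of freedom, and groups of 1 array were assumed to vary like the others. In this fit the residual spread comes from the 3 rostral and caudal pairs and not from repeats of 1 condition. Benjamini-Hochberg adjustment ran over all 45582 probes at a threshold of 0.05. Alternatives were normexp correction (offset 50), quantile normalization, a prior variance following intensity, no position term, the slide row as a block, other filters, a floor, 1 probe per gene, the matrix, and each array left out. Leaving arrays out of the intensity-trend fit, and adding the slide row to it, were chosen after seeing the data.

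The members, the gene lists and the rule for named genes were chosen with earlier results of these data known. The rule named every member probe, counts per list with the 2 largest E9.5 differences each way (for markers of other cell types, counts, sums and medians are printed), the 3 most alike genes per member, and Wt1, Hoxb7 and Kdr as label checks. Of the most alike genes, 1 is not reported here. Hoxb7 stood at 2.3 and 2.44 in the E9.5 duct and at 1.5 and 1.63 in Wt1-GFP cells. The 2 Kdr probes, well above background on all 8 arrays, stood at 2.73 and 4.12 at E8.75, at -3.38 to -0.79 and 1.47 to 1.95 on the later duct arrays labelled Flk1-negative, and at -0.46 to -0.34 and 2.1 in Wt1-GFP cells.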

Additional observations from a re-analysis of the deposited data

How the results depend on the processing

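With 2 residual degrees of freedom and groups of 1 or 2 arrays, no comparison separates arrays from conditions, and levels near background limit Lrrn4, Bnc1, Upk3b and Lhx9 in the duct. Of the single-probe values under all alternatives, 461 kept direction and side of the threshold, 3 passed it (the intensity trend for Lrrn4, Bnc1 and Ptx3) and 18 changed sign; where a setting changed a count or a sign, the cause was not tested. The labels carry no replicate numbers; they pair arrays by position, which was a term of the fit.

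The count of all probes called in the E9.5 reporter comparison, 0, became 285 with normexp correction (163 higher and 122 lower in the duct), 789 with a prior variance following intensity (384 higher and 405 lower) and 3 without the position term. From E8.75 to E9.5 it became 195 with normexp correction and 23 with the intensity trend, and for the interaction 2 and 1. Member probes called were 3 with the intensity trend, 0 to 3 when arrays were left out of that fit, and 0 with the slide row added to it. Filters, the floor, 1 probe per gene and the matrix left the counts of calls at 0.

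The reporter difference of Lhx9 A_55_P2117853 (0.08) turned to -0.17 with normexp correction, -0.09 with quantile normalization, -0.07 with floored values, and, when an array was left out, to as low as -1.53 (caudal Wt1-GFP) and -1.01 (caudal E9.5 duct), with a range of -1.53 to 1.69. Lhx9 A_55_P2111267 turned to 0.54 without the rostral E9.5 duct and 0.98 without the rostral Wt1-GFP array (range -3.5 to 0.98), and A_55_P2111264 to 0.12 without the latter (range -3.79 to 0.12). The rostral against caudal difference of Lrrn4 turned to 0.2 with normexp correction, 0.33 with floored values and 0.51 without either E9.5 duct array (range with arrays left out -0.64 to 0.51). That of Upk3b turned to -0.03 (range -0.03 to 2.28) and that of Lhx9 A_55_P2117853 to -0.39 (range -0.39 to 1.41) without either Wt1-GFP array. The E11.5 against E10.5 difference of Lrrn4 turned to 0.15 with the slide row as a block or without the rostral E10.5 array (range -0.53 to 0.15). Leaving arrays out gave E9.5 reporter differences of -5.83 to -3.75 for Lrrn4, -5.64 to -4.8 for Bnc1, -5.97 to -1.85 for Upk3b and -4 to -3.82 for Ptx3.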

Other observations

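Relatives of the members from the same gene families were read from the brightest probe of each. Of 15 such genes, 14 were on the array and 13 were tested, of which 4 were lower and 9 higher in the E9.5 duct than in Wt1-GFP cells, with a median difference of 0.41 against -0.05 for all genes. Over all genes 53.7% were lower. None passed the adjusted threshold (limma), and at an unadjusted p of 0.05, 0 were lower and 2 higher, against 5.76% and 5.97% of all genes. Bnc2, the relative of Bnc1, differed by -1.04 (SE 0.37), and Lhx2 by -1.68 (SE 1.76). Lrrn1, a relative of Lrrn4, was higher in the duct by 1.64 (SE 0.45), and Crp, a short pentraxin, by 2.29 (SE 2.04), with -0.6 on the rostral E9.5 duct array and a caudal value not well above background.

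Uroplakins other than the members were singled out after their values were seen. Upk1a was well above background on all 8 arrays, at -3.28 to -1.5, with its highest values in the rostral and caudal duct at E10.5 (-1.53 and -1.5). Upk2 was detected on the same E10.5 duct arrays alone, at -4.36 and -3.59, which are also the duct arrays on which Upk3b was detected. Upk3a had another pattern: it was well above background at E8.75 (-3.64) and on the rostral and caudal E9.5 duct arrays (-4.03 and -3.31), and on neither E10.5 array. Muc16, the mesothelial mucin also known as CA125, was well above background on the rostral Wt1-GFP array alone, at -3.53.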
